A study of Mus musculus with 7 samples.

Results

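Aplp1 and Sorl1 are genes of the amyloid precursor protein pathway whose messenger RNA was measured in astrocytes from mouse brains. There were 7 single-colour Affymetrix arrays, each taken as 1 animal from the sample number in its label. Both genes were chosen by name from a table of folds that the authors deposited. Its entries are all 1.4-fold or more in size, and the table does not name its groups. By the sign of every entry it sets the CETP mice of one diet label against those of the other, although only 59.4% of entries matched that difference of means within 0.1 on the log2 scale, so both genes are treated here as selected on that difference. They are 2 of the 1594 genes named in it, among 22193 features tested on the arrays. Each had 1 probe set (TC0700002759.mm.2 for Aplp1, whose ID names chromosome 7, and TC0900002113.mm.2 for Sorl1, whose ID names chromosome 9).

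The first group held wild-type mice on a standard diet (n = 2, replicates 2 and 3). The second held mice of the strain B6.CBA-Tg(CETP)5203Tall/J labelled as standard diet (n = 2, replicates 4 and 5), and the third held mice of that strain fed 1% cholesterol (n = 3, replicates 1, 2 and 3). CETP is human cholesteryl ester transfer protein, which exchanges cholesteryl esters among lipoproteins in plasma and has no counterpart in mice, and per the series' design text dietary cholesterol induces its expression. The growth protocol in the labels states the cholesterol diet, from 2 to 4 months of age, for all transgenic animals, and only the arrays' own labels give a standard diet for the second group. The age of the wild-type mice is not given in the sources used here. Cells were isolated with a magnetic ACSA-2 kit, and the labels give their purity by GFAP staining as over 70%. Of 14 astrocyte markers 2 were named here, the glutamate transporter gene Slc1a3 and the transcription factor gene Sox9, and both lay above the negative control median on all 7 arrays, while Gfap and Aqp4 were not analysed here.

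The amyloid precursor protein (APP) and its relatives APLP1 and APLP2 are membrane proteins with a large outer part and a short inner tail, and secretases cut them into a shed outer part and an intracellular piece. APLP1 is found mainly in the nervous system, where it acts in adhesion between cells and at synapses, and it lacks the amyloid beta stretch of APP. SORL1, also called SorLA or LR11, is a sorting receptor that combines a VPS10 domain with repeats of the lipoprotein receptor kind. It carries APP between the Golgi and endosomes together with the retromer complex, away from the compartments in which amyloid beta is made, and variants of the human gene are associated with Alzheimer's disease.

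Both genes had their highest group mean in the same cholesterol-diet animals, which follows in part from the difference by which they were listed. The regions before the 2 start sites are shown as a description, and their part in these levels was not tested. They are the 250 bases before the annotated start in RefSeq (build GRCm38.p6, minus strand in both cases), at chr7:30445583-30445832 for Aplp1 and chr9:42124298-42124547 for Sorl1, printed 5′ to 3′ along the gene. Capitals mark matches to the motifs searched.
Aplp1: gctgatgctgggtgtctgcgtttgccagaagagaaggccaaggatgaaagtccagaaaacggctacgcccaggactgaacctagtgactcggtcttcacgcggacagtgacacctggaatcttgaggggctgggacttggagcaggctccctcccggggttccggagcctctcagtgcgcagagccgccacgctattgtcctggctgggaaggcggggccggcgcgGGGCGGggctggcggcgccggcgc
Sorl1: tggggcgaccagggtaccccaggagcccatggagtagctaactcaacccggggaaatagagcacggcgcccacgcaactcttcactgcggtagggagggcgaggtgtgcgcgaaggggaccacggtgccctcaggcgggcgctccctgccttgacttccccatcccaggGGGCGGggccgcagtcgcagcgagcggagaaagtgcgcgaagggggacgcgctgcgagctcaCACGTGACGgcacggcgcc
The bases G and C made up 66.0% of the Aplp1 window and 69.6% of the Sorl1 window, where the median over 32851 promoter windows was 52.4%. Both windows held 1 GC box (GGGCGG, either strand), from 24 to 19 bases before the start in Aplp1 and from 81 to 76 bases before it in Sorl1. A GC box occurred in 32.74% of all windows. The Sorl1 window also held an E-box (CACGTG, found in 6.02% of windows) that shares 2 bases with a cyclic AMP response motif (TGACG, found in 17.77%), while the Aplp1 window held neither. Neither window held a TATA box (TATAAA, 12.37% of windows), the sterol regulatory element searched (TCACNCCAC, 1.05%) or a direct repeat of AGGTCA with 4 bases between (0.02%), which is the liver X receptor kind. The table gives a second start for Sorl1 inside the gene, which was not used here.

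Aplp1 was lowest in wild type, intermediate in CETP mice labelled as standard diet and highest in CETP mice on cholesterol. Its log2 values were 15.68 and 15.88 on the wild-type arrays (replicates 2 and 3), 16.18 and 16.07 on the CETP standard-diet arrays (replicates 4 and 5), and 17.00, 16.65 and 16.23 on the cholesterol-diet arrays (replicates 1, 2 and 3). No array of any group reached into the range of another. The gap from wild type to CETP standard was 0.19 on the log2 scale, a little less than the 0.20 that wild type itself spanned and more than the 0.10 that CETP standard spanned. The gap from there to the lowest cholesterol-diet array was 0.06, less than the span of either group (0.10 and 0.77). This order without overlap was found for 147 of 22193 features (0.662%), and as the upper step of it is the difference that put the gene in the fold table, the count describes the pattern and supports nothing. The values lay between 8.20 and 9.47 above the median of the negative control probes of the same array, far from background.

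Sorl1 was highest on cholesterol, while wild type and the CETP standard-diet group lay close together. Its log2 values were 12.28 and 12.11 in wild type (replicates 2 and 3), 12.10 and 12.04 in the CETP standard-diet group (replicates 4 and 5), and 12.58, 12.28 and 12.89 on cholesterol (replicates 1, 2 and 3). Cholesterol-diet replicate 2 and wild-type replicate 2 were 0.0005 apart on the log2 scale, and CETP standard-diet replicate 4 and wild-type replicate 3 were 0.0091 apart. The groups thus do not overlap by number, but neither of these steps exceeds the spread between replicates. CETP standard below wild type below cholesterol, with no overlap, was found for 69 features (0.311%), again with the difference between the CETP groups built in. Sorl1 lay 4.42 to 5.34 above the negative control median on the log2 scale.

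**Figure D1:**
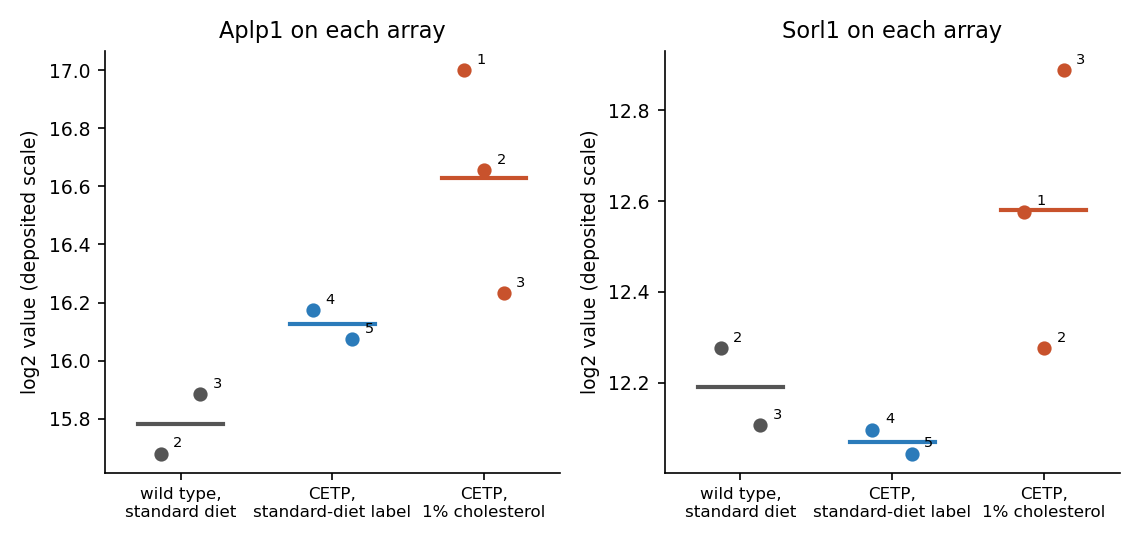
Log2 value of Aplp1 (left) and Sorl1 (right) on each of the 7 arrays (points, numbered by replicate), with the group mean as a line and a separate vertical axis for each gene, neither starting at 0. Aplp1 is lowest in wild type (15.68 and 15.88) and highest on cholesterol (16.23 to 17.00), while for Sorl1 wild type and CETP standard diet lie between 12.04 and 12.28 and cholesterol between 12.28 and 12.89.

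The 2 genes did not order the cholesterol-diet animals alike. For Aplp1 replicate 1 lay 0.37 above its group mean and replicate 3 lay at -0.40 from it, whereas for Sorl1 replicate 3 lay 0.31 above the group mean, replicate 1 at -0.004 and replicate 2 at -0.30. In wild type the deviations were also opposite, with replicate 2 at -0.10 for Aplp1 and 0.09 for Sorl1. In CETP standard diet they ran the same way, with replicate 4 above the group mean by 0.05 for Aplp1 and 0.03 for Sorl1 and replicate 5 below it for both.

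The comparison named in the series' design text sets CETP mice on cholesterol against wild type on the standard diet, so genotype and diet cannot be told apart in it. Aplp1 measured 16.63 ± 0.39 (SD, n = 3) against 15.78 ± 0.14 (SD, n = 2), 1.80-fold higher, or 0.85 ± 0.25 (SE) on the log2 scale with a 95% interval of 0.29 to 1.41. Sorl1 measured 12.58 ± 0.31 (SD, n = 3) against 12.19 ± 0.12 (SD, n = 2), which is 1.31-fold higher, or 0.39 ± 0.23 (SE) with an interval of -0.12 to 0.90. Without cholesterol-diet replicate 3 the Sorl1 difference was 0.24. By limma, adjusted over all features, neither gene passed the threshold of 0.05 (adjusted p = 0.505 for Aplp1 and 0.639 for Sorl1), and 0 of 22193 features did (0.00%). The unadjusted limma p was 0.00729 for Aplp1 and 0.117 for Sorl1, where 8.67% of all features had an unadjusted p under 0.05. All cholesterol-diet arrays lay above all wild-type arrays for both genes and for 9.96% of features. The same cholesterol-diet arrays entered the difference by which both genes were listed, so these directions are not independent of that choice. In bulk samples a different share of a cell type and a different amount of RNA per cell cannot be told apart, which holds for every difference given here.

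With the diet label held equal, CETP standard-diet mice were compared with wild type. Aplp1 measured 16.12 ± 0.07 (SD, n = 2) against 15.78 ± 0.14 (SD, n = 2), and differed by 0.34 ± 0.27 (SE) on the log2 scale with an interval of -0.27 to 0.95. Sorl1 measured 12.07 ± 0.04 (SD, n = 2) against 12.19 ± 0.12 (SD, n = 2), and differed by -0.12 ± 0.25 (SE) with an interval of -0.68 to 0.44. Neither passed by limma (adjusted p = 0.939 and 0.979), nor did any feature (0.00% of 22193, smallest adjusted p = 0.614, with 1175 at an unadjusted p under 0.05). Both CETP standard-diet arrays lay above both wild-type arrays for 12.1% of features, as for Aplp1, and below both for 19.3%, as for Sorl1. CETP standard-diet replicate 4 stood apart from the other arrays in microglial genes, with a summed level of 13 named markers at 16.00 on the log2 scale. The sum was 12.55 to 13.17 in wild type, 13.39 on CETP standard-diet replicate 5 and 13.06 to 13.86 on cholesterol. Singly, C1qa and Laptm5 lay above wild type on every CETP array, as did 5.11% of features, whereas Aif1 and Cd68 overlapped. These markers too had been listed for a difference between the CETP diet groups, and the part of microglia was not tested. Without CETP standard-diet replicate 4 the log2 difference was 0.29 for Aplp1 and -0.15 for Sorl1. The small Sorl1 difference turned more on the wild-type animals, at -0.04 without wild-type replicate 2 and -0.21 without wild-type replicate 3.

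All 5 CETP arrays against wild type, each array with equal weight, is the comparison of the series title. Its estimate is, for independent errors, uncorrelated with the difference between the CETP diet groups. A choice made on exactly that difference would not set it. However, only 59.4% of the entries in the fold table matched that difference within 0.1 on the log2 scale, so the exact basis of the choice is not known. Both genes were also proposed with earlier results of these data known. Aplp1 measured 16.43 ± 0.39 (SD, n = 5) against 15.78 ± 0.14 (SD, n = 2), which is 1.56-fold higher, or 0.65 ± 0.23 (SE) on the log2 scale with an interval of 0.13 to 1.16. It was higher than both wild-type arrays on all 5 CETP arrays, as were 5.11% of features. Sorl1 differed by 0.19 ± 0.21 (SE) with an interval of -0.28 to 0.65, and its CETP and wild-type arrays overlapped. The Sorl1 value was 0.06 without cholesterol-diet replicate 3 and 0.10 without wild-type replicate 3. Neither passed by limma after adjustment (adjusted p = 0.536 for Aplp1 and 0.824 for Sorl1, with 0.00% of features called and a smallest adjusted p of 0.461). The unadjusted limma p was 0.0188 for Aplp1 and 0.393 for Sorl1, where 8.31% of features were under 0.05.

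**Figure D2:**
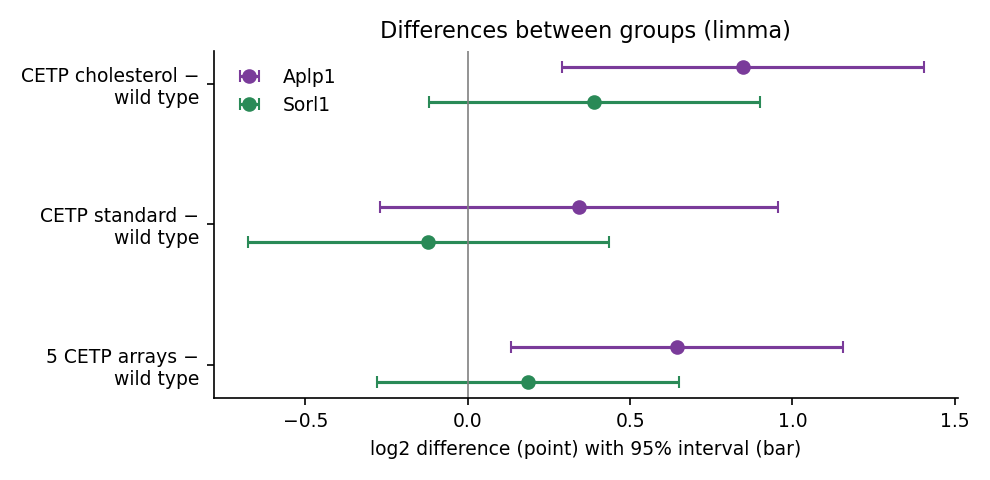
Log2 difference from wild type (points) with its 95% interval (bars) for Aplp1 and Sorl1 in 3 comparisons fitted with limma to all 7 arrays. The Aplp1 interval lies above 0 for cholesterol (0.29 to 1.41) and for all 5 CETP arrays (0.13 to 1.16) before adjustment over all features, and each Sorl1 interval spans 0.

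Between the 2 CETP groups the genes differed by similar amounts, which is the difference that chose them and is given without a test. On cholesterol Aplp1 stood 0.51 ± 0.25 (SE) and Sorl1 0.51 ± 0.23 (SE) higher on the log2 scale, or 1.42-fold and 1.43-fold. All cholesterol-diet arrays lay above both CETP standard-diet arrays for 9.91% of features. The Aplp1 difference was 0.32 without cholesterol-diet replicate 1 and 0.70 without cholesterol-diet replicate 3. The Sorl1 difference was 0.66 without cholesterol-diet replicate 2 and 0.36 without cholesterol-diet replicate 3.

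The hybridization spike-in controls, RNAs of known amount added at hybridization, had a higher mean on the cholesterol-diet arrays than in wild type. Their mean log2 values were 11.00 and 10.80 in wild type, 11.02 and 11.22 in CETP standard diet (replicates 4 and 5), and 11.41, 11.21 and 11.77 on cholesterol (replicates 1, 2 and 3). Cholesterol-diet replicate 3 was highest for both the spike-ins and Sorl1, while for Aplp1 it was the lowest of its group. With the spike-in level as a covariate, an alternative first tried after these data had been seen, the Sorl1 difference of cholesterol from wild type turned from 0.39 to -0.12 and that of all CETP arrays from 0.19 to -0.21, while the Aplp1 differences were 1.35 and 1.03. For the standard-diet label the same covariate moved Sorl1 from -0.12 to -0.33 and Aplp1 from 0.34 to 0.55. This covariate itself differed between the groups, and the part of the spike-in level in these differences was not tested in any other way.

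**Figure D3:**
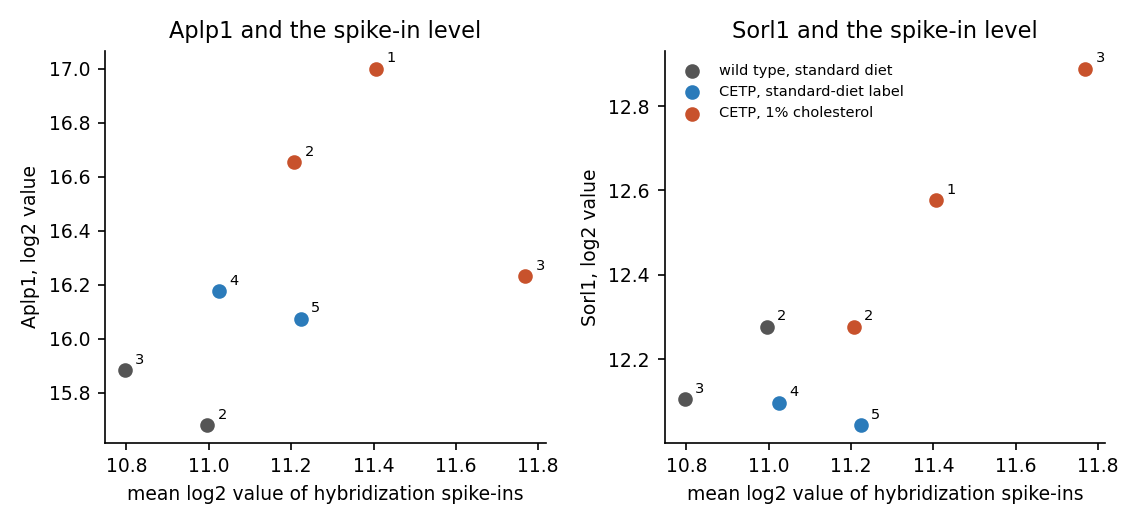
Log2 value of Aplp1 (left) and Sorl1 (right) against the mean log2 value of the hybridization spike-in controls on the same array, 1 point per array, numbered by replicate and coloured by group. The highest Sorl1 value (12.89) lies at the highest spike-in level (11.77), and the highest Aplp1 value (17.00) lies at 11.41.

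Genes that mark other cells which make APLP1 were also measured. Each named marker, like Aplp1 and Sorl1, had been listed in the fold table for a difference between the CETP diet groups. The order of those groups is therefore in part built into every summed level below. In the neuron list 2 of 14 were named, and their summed level on the log2 scale ran from 8.75 to 8.81 in wild type, 8.92 to 9.44 in CETP standard diet and 9.24 to 9.53 on cholesterol. The neuronal kinase gene Camk2a measured 8.21 and 8.20 in wild type, 9.04 and 8.04 in CETP standard diet, and 9.23, 8.81 and 9.14 on cholesterol. Syn1, a synaptic vesicle protein gene, did not exceed the negative control median on 6 of 7 arrays. In the oligodendrocyte list 2 of 16 were named, with summed levels of 13.19 to 13.54 in wild type, 13.28 to 13.50 in CETP standard diet and 13.53 to 14.35 on cholesterol. They went opposite ways on cholesterol against wild type, with the lineage factor gene Olig2 at 0.81 ± 0.31 and the myelin lipid enzyme gene Ugt8a at -0.70 ± 0.42 (SE). Astrocyte markers had summed levels of 14.63 to 15.01 in wild type, 14.93 to 14.99 in CETP standard diet and 14.80 to 15.71 on cholesterol. Taken singly, on cholesterol against wild type Slc1a3 differed by 1.233 ± 0.377 and Sox9 by 0.438 ± 0.285 (SE). All cholesterol-diet arrays lay above wild type for Slc1a3, as for 9.96% of features, whereas they overlapped for Sox9. Markers of vessel cells were measured as well. In the endothelial list 6 of 12 were named, with summed levels of 12.60 to 12.64 in wild type, 13.53 to 13.94 in CETP standard diet and 12.93 to 13.06 on cholesterol. All CETP arrays thus lay above wild type, as for Aplp1. The standard-diet label was highest, an order of the CETP groups in part built in by the listing. Ptprb, a receptor phosphatase gene of endothelial cells, had the largest differences of the 6. It differed from wild type by 0.97 ± 0.26 on cholesterol and 1.56 ± 0.28 (SE) on the standard-diet label. Flt1 differed by 0.70 ± 0.27 and 1.23 ± 0.30 (SE). On cholesterol Kdr stood at -0.04, Igfbp7 at 0.14, Tek at 0.28 and Vwf at 0.64, each with arrays that overlapped wild type. In the mural cell list 3 of 8 were named and the groups overlapped. Summed levels were 12.53 to 12.95 in wild type, 12.50 to 12.87 in CETP standard diet and 12.81 to 13.41 on cholesterol. Mylk, the myosin light chain kinase gene of smooth muscle, differed by 1.43 ± 0.34 on cholesterol and 1.83 ± 0.37 (SE) on the standard-diet label. Rgs5 differed by 0.07 ± 0.22 and 0.63 ± 0.24 (SE), and Pdgfrb by 0.28 ± 0.25 and -0.26 ± 0.28 (SE). For Rgs5 and Pdgfrb the cholesterol and wild-type arrays overlapped. These Ptprb and Mylk differences were larger than those of Aplp1, as was that of Slc1a3 on cholesterol. In the choroid plexus and ependyma list 2 of 7 were named, Ttr and Kcnj13, and the groups overlapped. Their summed levels were 15.92 to 16.52 in wild type, 16.22 to 16.71 in CETP standard diet and 15.04 to 16.74 on cholesterol. On cholesterol both fell from replicate 1 to replicate 3, as Aplp1 did, but both had a lower mean there than in wild type. None of these marker genes passed by limma after adjustment, and the part of these cells in the Aplp1 and Sorl1 values was not tested.

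Of 70 genes in lists around APP and SORL1, 12 were named and the others were not analysed here. The lists were drawn up with earlier results of these data known, and each named gene had been listed for a difference between the CETP diet groups. On cholesterol against wild type 7 of the 12 had a higher mean and 5 a lower one, with a median log2 difference of 0.16 beside -0.05 over all features. In CETP standard diet against wild type 7 were higher and 5 lower, with a median of 0.09 beside -0.05. By limma 0 of the 12 passed in either direction in either comparison.

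Aplp1 was the 1 named gene of the 3 in the APP family, as App and Aplp2 were not analysed here. Among 13 genes of the secretases and their partners only the gamma-secretase subunit gene Ncstn (nicastrin) was named, and it measured 13.53 and 12.61 in wild type, 13.22 and 12.50 in CETP standard diet, and 13.56, 13.40 and 13.31 on cholesterol. Its cholesterol and wild-type arrays overlapped, at a log2 difference of 0.36 ± 0.31 (SE). Of the adaptors and modulators of APP 3 of 15 were named.

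Mapk8ip1, a scaffold of the JNK kinase pathway that also binds the APP tail, had the largest difference of the 12 genes. It measured 11.62 and 11.37 in wild type, 12.29 and 12.58 in CETP standard diet, and 13.11, 12.33 and 13.05 on cholesterol. The log2 difference from wild type was 1.34 ± 0.27 (SE) on cholesterol (limma adjusted p = 0.469) and 0.94 ± 0.30 on the standard-diet label (adjusted p = 0.925). All CETP arrays lay above wild type for Mapk8ip1, as for 5.11% of features. Apbb1, which encodes the APP-binding adaptor FE65, differed by 0.55 ± 0.26 on cholesterol and by -0.15 ± 0.29 on the standard-diet label. Apba1, the gene of the neuronal adaptor X11 alpha, stood at -0.34 ± 0.21 and 0.19 ± 0.23.

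Sorl1 was the 1 named gene of the 5 VPS10 domain receptors. Of 20 genes of its retromer and sorting partners 3 were named, and on cholesterol all 3 had lower means than in wild type, of which none passed by limma. Vps26a, a retromer subunit, stood at -0.41 ± 0.24, the sorting nexin gene Snx2 at -0.45 ± 0.26 and Gga3, a Golgi adaptor that binds sorting receptors, at -0.43 ± 0.26 (SE). On the standard-diet label the same genes differed by 0.17 ± 0.27, 0.004 ± 0.28 and 0.26 ± 0.28. Gga3 measured 8.87 and 9.23 in wild type and 8.80, 8.62 and 8.42 on cholesterol, so that the gap was smaller than the spread within either group.

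Of 14 genes for clearance or breakdown of amyloid beta 3 were named. Ide, the insulin-degrading enzyme, which also cuts amyloid beta, had an SD of 1.15 on the log2 scale within the CETP standard-diet group (n = 2) and differed from wild type by 0.11 ± 0.47 on cholesterol. Apoe, the gene of the main apolipoprotein made by astrocytes and a ligand of lipoprotein receptors, stood at -0.25 ± 0.24 and the endocytic receptor gene Lrp1 at 0.21 ± 0.27. Each of these 3 had cholesterol and wild-type arrays that overlapped.

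**Figure D4:**
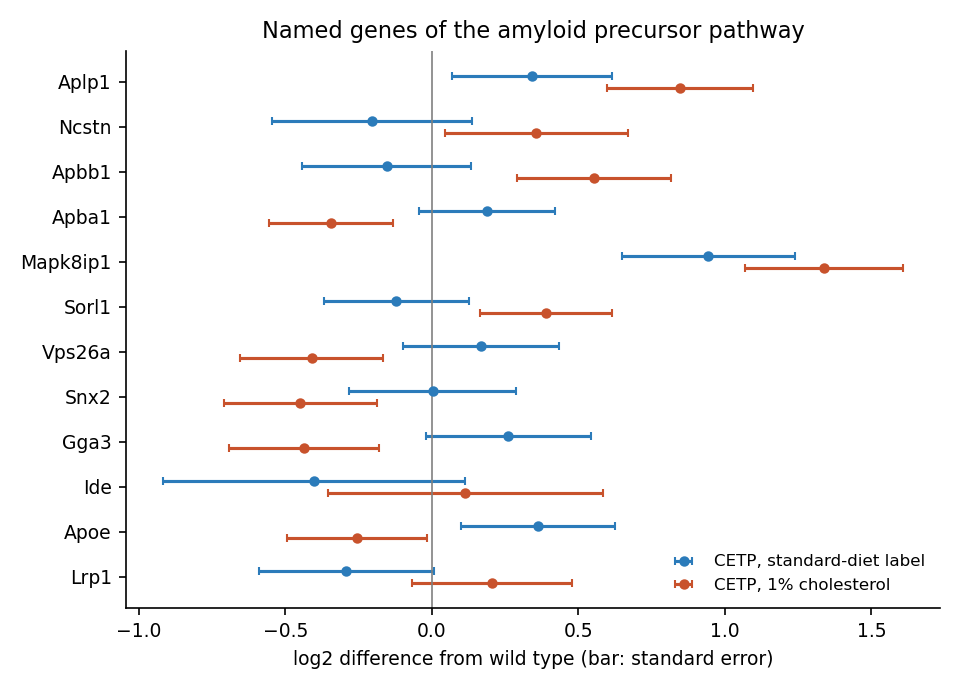
Log2 difference from wild type (points) with its standard error (bars) for the 12 named genes of the lists around APP and SORL1, in CETP mice labelled as standard diet and on 1% cholesterol. Mapk8ip1 (1.34) and Aplp1 (0.85) lie farthest to the right on cholesterol, and Vps26a (-0.41), Snx2 (-0.45) and Gga3 (-0.43) lie to the left.

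The patterns most like each gene were sought among 1044 other named genes with a mean above the negative control level, by the mean absolute difference between log2 values centred on their mean over 7 arrays. As all of these genes share the arrays and were listed by the same difference, the likeness is a description. Nearest to Aplp1 were Unc5b, a netrin receptor gene, at a mean absolute difference of 0.14, Wbp2 at 0.17, the transcription factor gene Elk1 at 0.18, the sorting protein gene Pacs2 at 0.18 and Wdfy3, whose product acts in autophagy, at 0.19. Unc5b measured 12.84 and 12.78 in wild type, 13.25 and 12.84 in CETP standard diet, and 13.57, 13.59 and 13.19 on cholesterol, and like Aplp1 it was lowest in replicate 3 of the cholesterol group.

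Sorl1 had nearer neighbours. The measure is not scaled to the span of a gene, and Sorl1 varied less over the arrays than Aplp1. Its smaller distances therefore do not show a closer shared pattern. The zinc finger gene Zxda lay at 0.06, the circadian repressor gene Nr1d1 at 0.07, Lce1j at 0.08, the protocadherin gene Pcdh1 at 0.08 and Gaa, the lysosomal enzyme that breaks down glycogen, at 0.09. Nr1d1 measured 14.31 and 14.20 in wild type, 14.15 and 14.11 in CETP standard diet, and 14.76, 14.60 and 14.98 on cholesterol, with replicate 3 highest as for Sorl1. Aplp1 and Sorl1 lay 0.35 apart by this measure, which placed Sorl1 at rank 143 among the genes nearest to Aplp1 and Aplp1 at rank 341 among those nearest to Sorl1.

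**Figure D5:**
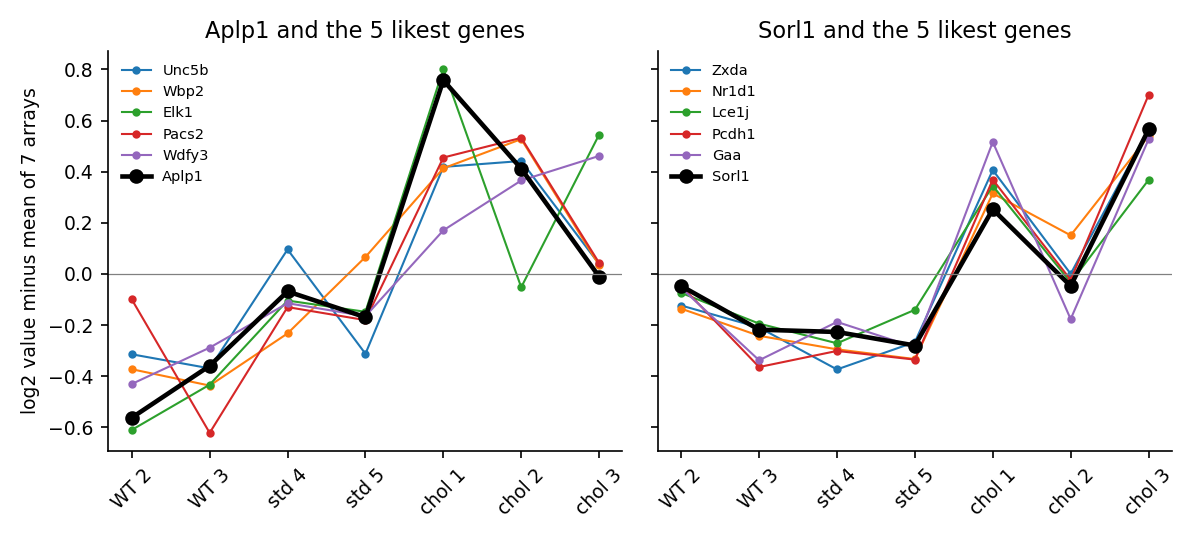
Log2 values minus the mean of the 7 arrays for Aplp1 (left, black) and Sorl1 (right, black), each with its 5 likest named genes, on the arrays of wild type (WT), CETP standard-diet label (std) and CETP cholesterol (chol); the lines join unrelated animals and only guide the eye. The Sorl1 neighbours keep within 0.06 to 0.09 of it on average and all are highest in cholesterol replicate 3, while Aplp1 is highest in replicate 1.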

How the data were processed

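Labelling with biotin started from 10 ng of total RNA, per the labels' protocols. The deposited values are on a log2 scale, 1 per probe set and array; how the authors summarized and normalized them is not given in the sources used here, and base 2 was read from the values. The authors' deposited fold table gives signed folds, a score used here only for its smallest size, its signs and its gene symbols. It does not name its groups, but its sign was that of CETP standard minus CETP cholesterol means for 100.0% of entries, against 73.1% for CETP standard minus wild type and 21.2% for CETP cholesterol minus wild type. In size 59.4%, 11.5% and 1.1% of entries matched these differences within 0.1 on the log2 scale. Of its 1778 probe sets 1607 were named, 1526 through RefSeq symbols of GRCm38.p6 on the chromosome that the ID gives and 78 by the file's own name, and 160 naming several genes were dropped. Of 28846 entries 22206 were transcript clusters, and keeping the probe set with the highest mean per gene left 22193 features. Array medians were 7.51 to 7.59, and pairwise correlations 0.977 to 0.992.

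A limma model (3.58.1, R 4.3.3) of 3 group means was fitted to all 7 arrays (4 residual and 5.39 prior degrees of freedom), with Benjamini-Hochberg adjustment over all features and two-sided tests. Each array was taken as 1 animal from the sample number in its label. The few arrays limit the precision. Genes named were Aplp1 and Sorl1, the named members of 6 pathway lists, the 5 likest genes of each and some named markers, of which the text gives some. One further gene of these lists is not reported here and was left out of their counts. Members and lists were chosen with earlier results of these data known. Alternatives tried were the omission of each array, a fit of only the groups compared, 2 normalizations, a filter on dim features, averaged probe sets, array weights, another prior, a spike-in covariate, a replicate block and other weights of the CETP groups. Other steps used Python 3.11.15.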

Additional observations from a re-analysis of the deposited data

Results flagged for a closer look

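The Sorl1 means of the 2 CETP groups lay on opposite sides of wild type. All 3 cholesterol-diet arrays lay above the wild-type mean, at a log2 difference of 0.39 ± 0.23 (SE). Both CETP standard-diet arrays lay below it, at -0.12 ± 0.25 (SE). Both 95% intervals spanned 0, and the nearest arrays were only 0.0005 and 0.0091 from wild type. With the spike-in covariate both differences were below 0, at -0.12 and -0.33. The difference between the 2 CETP groups was not tested, because it is the one by which the gene was listed.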

How the results depend on the processing

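No alternative brought Aplp1 or Sorl1 past the threshold in any comparison with wild type, and the smallest adjusted p by limma over the alternatives was 0.362 for Aplp1 and 0.470 for Sorl1. The Aplp1 difference was above 0 in all 16 alternatives for cholesterol, 15 for the standard-diet label and 16 for all CETP arrays. Several of these could not move the estimate, so the counts overstate how much was varied. The filter on dim features, averaged probe sets and another prior left it at 0.847, 0.342 and 0.645 in that order. Omitting an array of a group not compared, or fitting only the groups compared, also left it unchanged. Leaving out 1 array gave 0.66 to 1.05 for cholesterol, 0.24 to 0.44 for the standard-diet label and 0.50 to 0.75 for all CETP arrays against wild type. For Sorl1 it gave 0.24 to 0.54, -0.21 to -0.04 and 0.06 to 0.27, the last being 0.06 without cholesterol-diet replicate 3 and 0.10 without wild-type replicate 3. The spike-in covariate turned Sorl1 to -0.12 for cholesterol and -0.21 for all CETP arrays, and moved the difference between the CETP groups to 0.80 for Aplp1 and 0.20 for Sorl1. That difference was 0.32 to 0.70 for Aplp1 and 0.36 to 0.66 for Sorl1 when 1 array was left out. Over all features 0 were called except 7 for cholesterol with a replicate block and 0 to 9 for the standard-diet label when 1 array was left out, the 9 without CETP standard-diet replicate 5. Leaving out 1 array left 1 animal in a group of 2, which limma takes to vary like the others. Replicate numbers 2 and 3 occur in wild type and cholesterol, but their deviations correlated at 0.008 and 0.037 and the animals differ, so they were not taken as pairs; with the block, which leaves 1 residual degree of freedom, Aplp1 differed by 0.66 and Sorl1 by 0.39. Fitting only the groups compared was not run for all CETP arrays, where it is the main fit. Under median subtraction and quantile normalization the 12 pathway genes kept their direction against wild type in both CETP groups.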
